A study of Mus musculus with 696 samples.

Results

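The 39 genes described here make fatty acids, sterols and the lipids of sebum, and they were followed in the progeny of Lrig1 stem cells of mouse tail skin through 2 rounds of wounding. The members were chosen by name, and all 39 were among the 15652 genes of the table. There were 13 genes of fatty acid synthesis, desaturation, elongation and activation and 13 genes of sterol synthesis. The others were 10 genes of sebum and lipid storage and 3 regulators. Earlier results of these data were known when they were chosen, so counts of members beside the share of all genes are descriptions. Single tdTomato+ keratinocytes were sorted into plates and read by Smart-seq2, a full-length method without molecular identifiers. The 4 time points were unwounded skin (0w, 179 cells), 1 week after a first full-thickness wound (1w, named 1w pw1 in the study, 168 cells), 8 weeks after it (8w, or 8w pw1, 172 cells) and 1 week after a second wound laid over the first (9w, or 1w pw2, 177 cells). Every group, 0w included, came from female mice of a CBA C57BL/6 mixed strain that carried Lrig1-EGFP-ires-CreERT2 and Rosa26-fl/STOP/fl-tdTomato and had received hydroxytamoxifen once on the tail. The label therefore follows cells that expressed Lrig1 at that moment and all their descendants, and the sorted zone held wound bed and distal hair follicles together. Each time point had 2 plates, replicate 1 and replicate 2, with 79 to 91 cells each, and the mice behind a plate are not separated in the labels. The sample titles also carry a batch-like letter that is the same for both plates of a time point and differs between time points, so if it marks a batch, that batch and the time point cannot be told apart.

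Fatty acid synthesis starts from citrate, which Acly splits into acetyl-CoA. Acaca and Fasn turn acetyl-CoA into palmitate, Scd enzymes insert a double bond, Elovl enzymes lengthen the chain, and Acsl enzymes activate it for use. Sterol synthesis starts from the same acetyl-CoA with Acat2 and Hmgcs1, runs through the mevalonate steps to squalene, and ends in cholesterol after Lss has closed the rings. Srebf1 and Srebf2 encode the transcription factors that drive both branches, with Srebf1 weighted towards fatty acids and Srebf2 towards sterols, and Insig1 holds them back when sterol is plentiful. In skin the sebaceous gland, whose cells descend from the Lrig1 compartment of the upper hair follicle, fills with wax esters, triglycerides and sterol esters made by Far, Dgat and Soat enzymes, while the suprabasal epidermis makes the very long fatty acids of the water barrier, for which Elovl4 is needed.

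The promoters of 5 members are shown first because they carry, or lack, the letters through which the Srebf factors and their partner NF-Y are known to bind. RefSeq (GRCm38.p6) gave a promoter window for 30 of the 39 members, and the 250 bases upstream of the start site were searched on both strands for a sterol regulatory element (TCACNCCAC), for an NF-Y box (CCAAT) and for an E-box (CACGTG). Capitals mark these matches, with CCAAT written as ATTGG where it lies on the other strand. Hmgcs1, at chr13:119690101-119690350 (plus strand), held 1 sterol regulatory element and 3 NF-Y boxes. Mvd, at chr8:122443423-122443672 (minus strand), held 2 NF-Y boxes, and Sc5d, at chr9:42264301-42264550 (minus strand), held 1 NF-Y box and 1 E-box. Fasn, at chr11:120824548-120824797 (minus strand), held 3 NF-Y boxes, of which 2 overlap on opposite strands. Elovl4, at chr9:83806306-83806555 (minus strand), held none of the 3 motifs and is shown as the member with the lowest p in the first healing.
Hmgcs1: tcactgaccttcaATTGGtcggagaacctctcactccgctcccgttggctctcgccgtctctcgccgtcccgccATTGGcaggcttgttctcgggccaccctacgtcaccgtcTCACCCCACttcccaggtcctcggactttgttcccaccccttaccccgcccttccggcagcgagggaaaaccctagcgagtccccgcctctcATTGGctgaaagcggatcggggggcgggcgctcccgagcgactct
Mvd: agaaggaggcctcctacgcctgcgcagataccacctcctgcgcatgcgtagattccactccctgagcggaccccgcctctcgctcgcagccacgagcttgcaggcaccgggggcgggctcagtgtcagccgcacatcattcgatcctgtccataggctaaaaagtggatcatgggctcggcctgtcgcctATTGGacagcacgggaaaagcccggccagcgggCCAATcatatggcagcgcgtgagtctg
Sc5d: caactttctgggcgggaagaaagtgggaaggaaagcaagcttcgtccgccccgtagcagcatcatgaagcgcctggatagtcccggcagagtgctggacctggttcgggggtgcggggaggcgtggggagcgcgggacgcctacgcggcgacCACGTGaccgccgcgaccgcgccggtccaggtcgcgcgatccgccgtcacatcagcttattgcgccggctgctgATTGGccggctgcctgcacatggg
Fasn: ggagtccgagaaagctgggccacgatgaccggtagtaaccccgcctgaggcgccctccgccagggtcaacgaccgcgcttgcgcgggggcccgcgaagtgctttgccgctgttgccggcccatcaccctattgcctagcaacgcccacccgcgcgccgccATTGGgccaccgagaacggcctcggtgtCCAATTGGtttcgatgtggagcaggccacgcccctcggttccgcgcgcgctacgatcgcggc
Elovl4: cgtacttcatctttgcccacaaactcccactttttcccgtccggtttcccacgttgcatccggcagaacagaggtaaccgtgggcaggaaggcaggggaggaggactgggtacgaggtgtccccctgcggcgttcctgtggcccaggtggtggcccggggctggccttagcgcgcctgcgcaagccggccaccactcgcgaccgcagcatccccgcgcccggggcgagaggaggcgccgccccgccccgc
Of the 10 sterol genes with a window, 8 held an NF-Y box, against 4 of 10 fatty acid genes, 3 of 7 sebum and storage genes, all 3 regulators and 34.5% of all 27025 genes. The sterol regulatory element was in Hmgcs1 alone (1.04% of all genes), and the E-box was in Elovl5, Insig1 and Sc5d (6.04% of all genes). A GC box (GGGCGG), searched in the same way and not marked in capitals, was in 10 of 10 sterol genes and in 23 of the 30 members, against 33% of all genes. These are matches of letters in a short window and were not tested for binding. Scd1, Scd2, Fads1, Dgat1, Dgat2, Cidea, Fdps, Fdft1 and Sqle had no entry.

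The plates held 12293182 to 19760820 estimated counts, and the median cell held 132595 counts and 4460 genes. Levels below are plate sums, scaled by TMM and given as CPM, the count scaled to a common library total; CPM is not divided by gene length, so levels are compared between plates and not between genes. Sums over all cells of a plate cannot tell fewer cells of a kind from less RNA per cell. The median cell had between 13.04% and 30.7% mitochondrial counts by plate, highest on the second 0w plate, where 21 of 91 cells passed the stricter cell filter (2000 genes or more, mitochondrial share up to 25%) against 40 to 67 cells on the other plates. A single cell held up to 12.1% of the counts of a plate (8w replicate 2), and it held far more of some members, such as 87.1% of Cidea at 0w replicate 1. Suprabasal marker genes (6 of 6 listed were in the table) summed to 3194 and 3369 CPM at 0w, 34904 and 36979 at 1w, 6566 and 5098 at 8w and 18645 and 27550 at 9w. Adipocyte markers, which would bring the same lipid genes, summed to at most 2.27 CPM on any plate, with Adipoq, Lep and Cfd absent from the table, and immune markers summed to at most 31.8 CPM. Endothelial markers, with Cdh5 absent from the table, summed to between 94.5 and 1812 CPM.

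For 7 of the 10 sebum and storage genes most counts came from a small set of cells. Clustering all cells without any member gene gave a cluster of 59 cells in which 4 of the 8 sebaceous markers in the table (Mc5r, Elovl3, Fa2h and Acsbg1) were over 2-fold higher than elsewhere, and it is called sebaceous gland-like. Its leading genes were Emb, Secisbp2l, Adh1, Tlcd4 and Ermp1, and the markers Awat1 and Cidec were absent from the table. These cells numbered 13 and 24 on the 0w plates, 1 and 0 at 1w, 5 and 12 at 8w and 3 and 1 at 9w. They were deep, with a median of 1.97 times their plate's median count. They held 20.7% and 36.6% of all counts at 0w, 0.529% and 0% at 1w, 10.1% and 13.9% at 8w and 3.39% and 0.48% at 9w. The 8 sebaceous markers summed to 209.7 and 349 CPM at 0w, 69.4 and 72.2 at 1w, 176 and 258 at 8w and 253 and 94.1 at 9w, so that their level did not follow the number of these cells on every plate. At a coarser clustering the 59 cells lay in a group of 79 that held 2 markers above 2-fold and would not have earned the name. At a finer one they fell into groups of 16 and 45 cells, which held 16 and 43 of them.

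The 59 cells held 97.4% of all counts of Soat1, which esterifies cholesterol, and 96.1% of those of Far2, which makes the fatty alcohols of wax. They also held 95.6% for Cidea, a lipid droplet protein, 90.8% for Pparg, the transcription factor of sebocyte and fat cell differentiation, 90.6% for Elovl6 and 90.5% for Scd1. Shares were 73.3% for Mgst1, 72.9% for the ceramide synthase Cers4 and 59.4% for the droplet coat protein Plin2. The other 3 genes of the list had lower shares, at 39.004% for Dgat2, 13.9% for Dgat1 and 10.4% for Far1. A share has to be read against the part of all counts that these cells held on each plate, given above. Per cell, Far1 had a mean of 76.2 CPM in these cells and 73.8 in the others, and Dgat1 11.8 and 8.55. The shares of the sterol genes lay between 18.1% (Sqle) and 44.0% (Idi1) for 11 of the 13, with 5.41% for Dhcr7 and 1.22% for Sc5d. At the other end stood Scd2 (1.2%), Elovl1 (1.92%), Acsl1 (3.08%) and Elovl4 (0.0246%), and Fads1 and Fads2 had 0 counts in these cells. Counts were concentrated further, so that 2 cells held most of the counts of Cidea, 3 cells most of those of Far2, 4 of Soat1 and 5 of Scd1. The median of the 59 cells was 7.76 CPM for Far2 and 23.2 CPM for Soat1, next to means of 497 and 774 CPM.

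**Figure D1:**
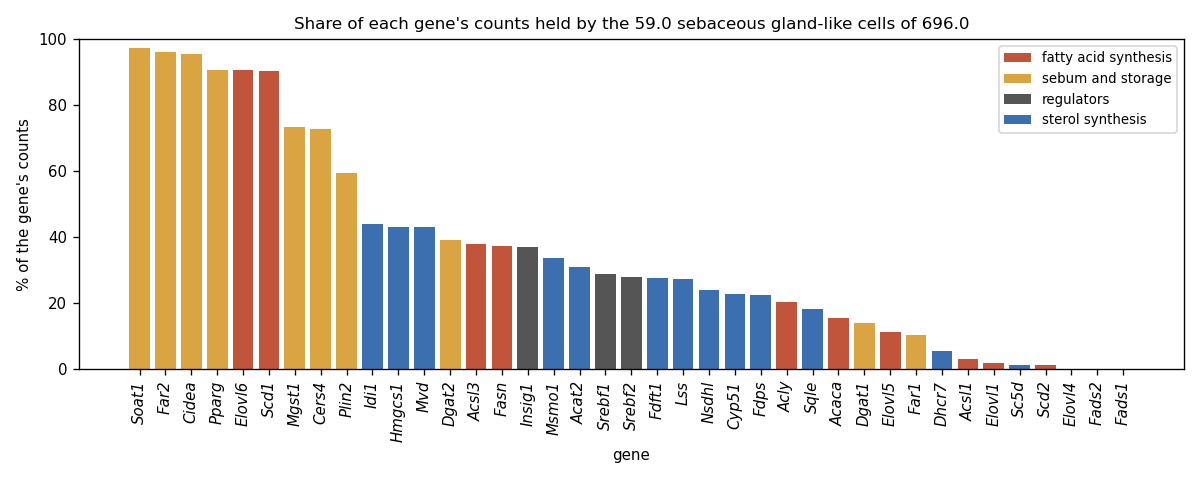
Share of each member's counts, in % over all plates, that lay in the 59 sebaceous gland-like cells; each bar is a gene, coloured by its list. Soat1, Far2, Cidea, Pparg, Elovl6 and Scd1 stand above 90%, and Elovl4, Fads1 and Fads2 at or near 0%.

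Within the sebaceous gland-like cells the level itself also differed between plates. Summed over these cells alone, Scd1 stood at 2176 CPM (13 cells) and 12447 CPM (24 cells) at 0w and at 5357 CPM (5 cells) and 15383 CPM (12 cells) at 8w. Mgst1, an enzyme of glutathione conjugation, stood at 1016 and 6638 CPM at 0w and at 1649 and 6904 CPM at 8w. For both genes replicate 2 was above replicate 1 at each time point, by more than the difference between 0w and 8w. Between 0w and 8w the plates did not overlap for 4 of 39 members that were higher at 8w (Fasn, Elovl1, Srebf1 and Mvd). They did not overlap for 5 of 39 that were lower (Acaca, Elovl4, Acsl1, Acsl3 and Sc5d). Of all genes 9.45% were higher and 24.5% lower in this way, so the first count was near that share and the second below it. Elovl4 rested on 0.581 and 0.439 CPM at 0w against 0 and 0 at 8w, and Sc5d on 5.52 and 7.76 against 0 and 0. Fasn had 129 and 123 CPM at 0w and 365 and 391 CPM at 8w, while Acaca, which acts just before it, had 52.0 and 49.98 CPM against 24.1 and 23.5. No test was made on so few cells.

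The first question is what happened to these genes in the first healing. No member was called between 1w and 0w with edgeR (quasi-likelihood test, Benjamini-Hochberg adjusted p below 0.05 and fold above 2), where 73 of 13853 genes, 0.527%, were called. At an unadjusted p below 0.05 there were 15 members, 5 higher and 10 lower, against 5.45% and 6.01% of all genes. DESeq2 called 9 members, with Acsl1, Elovl4 and Scd2 higher and Fads2, Scd1, Elovl6, Cidea, Pparg and Far2 lower, against 5.29% of all genes. The plates did not overlap for 7 members that were higher at 1w and 14 that were lower, against 23% and 22.1% of all genes. The median log2 fold change was -0.56 over the members and -0.04 over all genes.

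Elovl4, at chr9:83778692-83806277 on the minus strand, makes the very long chains of barrier ceramides. It stood at 45.9 and 76.3 CPM at 0w, 298 and 273 at 1w, 55.5 and 75.1 at 8w and 111 and 287 at 9w. Both plates of 1w lay above both plates of 0w and of 8w, and the 9w plates lay far apart, the second within the range of 1w. The log2 fold change at 1w against 0w was 2.22 (SE 0.56, edgeR adjusted p = 0.137), and with the replicate number as a block it was 2.31 (SE 0.44, adjusted p = 0.039), a call that stands among 1.7% of all genes called under the block. Elovl4 was highest in the cluster led by Krt2, Krt10 and Krt1 (mean 317 CPM per cell) and at 0.0 CPM in the cluster led by Postn and Lgr5, and the order of its time point means was that of the summed suprabasal markers given above, while the 2 plates of 1w and of 8w were in the opposite order. The part of these markers in the difference was not tested.

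Scd2, a stearoyl-CoA desaturase at chr19:44293674-44306864 next to Scd1, stood at 184 and 176 CPM at 0w, 609 and 440 at 1w, 219 and 193 at 8w and 204 and 243 at 9w. The 1w plates lay above all 6 others. The log2 fold change at 1w against 0w was 1.54 (SE 0.42, edgeR adjusted p = 0.172). Acsl1, which activates long-chain fatty acids, stood at 44.8 and 65.5 CPM at 0w, 144 and 185 at 1w, 79.5 and 58.4 at 8w and 108 and 123 at 9w. Both healing weeks were above 0w and 8w without overlap (log2 fold change at 1w against 0w 1.58, SE 0.46, edgeR adjusted p = 0.193). Elovl1, another elongase of very long chains, followed the same order up to 8w with 22.0 and 18.0 CPM at 0w, 47.5 and 64.6 at 1w and 25.0 and 42.0 at 8w, and stood at 61.7 and 77.3 CPM at 9w.

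Scd1, at chr19:44394455-44407879, stood at 486 and 4632 CPM at 0w, 336 and 138 at 1w, 552 and 2282 at 8w and 487 and 260 at 9w. The replicate 2 plates of 0w and 8w were high. At each of these time points they held more sebaceous gland-like cells than replicate 1, but the first 0w plate, with 13 such cells, had a lower Scd1 level than the second 8w plate, with 12. The log2 fold change at 1w against 0w was -3.43 (SE 1.04, edgeR adjusted p = 0.21), and it was 0.89 (SE 0.50, adjusted p = 0.571) once the sebaceous gland-like cells were left out, where the levels were 120 and 78.5 CPM at 0w against 231 and 137 CPM at 1w. Elovl6, which lengthens palmitate to stearate, stood at 78.1 and 404 CPM at 0w, 21.0 and 23.0 at 1w, 48.3 and 208 at 8w and 65.5 and 23.1 at 9w. Its log2 fold change at 1w moved from -3.45 (SE 0.94, edgeR adjusted p = 0.17) to 0.50 (SE 0.66) without those cells.

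Of the sebum and storage genes, 10 of 10 had a log2 fold change below 0 at 1w against 0w, with a median of -2.25, and 6 had an unadjusted p below 0.05 (6.01% of all genes lower) with none called by edgeR. The plates overlapped for 5 of the 10, and the summed level was 578 and 4304 CPM at 0w against 492 and 602 CPM at 1w, so that the first 0w plate lay within the 1w range. Leaving out the second 0w plate gave 6 of 10 below 0, a median of -0.51 and 0 at an unadjusted p below 0.05, and that last count was 3 without the first 1w plate and 1 without the second. Cidea stood at 3.22 and 59.3 CPM at 0w, 3.66 and 0.586 at 1w, 9.43 and 54.9 at 8w and 11.5 and 7.77 at 9w, and Pparg at 16.9 and 71.9 CPM at 0w, 1.05 and 3.98 at 1w, 1.66 and 19.4 at 8w and 1.19 and 0.216 at 9w. Far2 stood at 10.1 and 299 CPM at 0w, 10.001 and 4.57 at 1w, 17.6 and 106 at 8w and 34.3 and 13.2 at 9w. The second plates of 0w and 8w were high for all 3 genes, and the second 0w plate is also the one with the highest median mitochondrial share. With the stricter cell filter the median log2 fold change at 1w against 0w was -0.50, next to -0.56 with all cells. These medians were taken over the members of all lists, not over the sebum and storage genes alone. The filter left 21 of 91 cells on the second 0w plate. Whether the mitochondrial share of that plate bears on its sebum and storage levels was not tested. Soat1 spanned 0.703 to 303 CPM over the 8 plates, Plin2 27.1 to 207, Mgst1 175 to 2612 and Cers4 73.3 to 582, each highest on the second 0w plate. Far1, which makes fatty alcohols in many tissues, spanned 42.5 to 123 CPM, and Dgat2, which makes triglycerides, 17.6 to 62.0. Without the sebaceous gland-like cells the median of the list was 0.39 and 6 of the 10 lay above 0. Cers4 turned from a log2 fold change of -1.65 to 2.02, with 34.8 and 12.2 CPM at 0w and 110 and 81.6 at 1w in the remaining cells.

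Fads2 and Fads1, the desaturases that make polyunsaturated fatty acids, form a case of their own. Fads2 stood at 8.00 and 1.02 CPM at 0w, 0 and 0 at 1w, 0.864 and 0.13 at 8w and 0 and 0.054 at 9w. Against a floor of 3 counts over both 1w plates it was at least 48.7-fold lower at 1w than at 0w, a bound carried by the first 0w plate and at least 11.1-fold without it, and edgeR gave an adjusted p of 0.143. Fads1 stood at 5.97 and 3.29 CPM at 0w and 0 and 1.17 at 1w. Both were highest in the cluster led by Postn, Lgr5 and Thbs1, in which Cd34 and Lhx2 were also over 2-fold higher than elsewhere (17.3 CPM per cell for Fads2), which held 22 and 11 cells at 0w, 0 and 1 at 1w, 19 and 9 at 8w and 1 and 0 at 9w. Over all plates pooled, 2.87% of cells (95% exact binomial interval 1.76% to 4.40%, counting error only) had a count of Fads2. By plate the share was 6.82% and 8.79% at 0w, 0% and 0% at 1w, 3.53% and 2.3% at 8w and 0% and 1.1% at 9w, so the pooled interval describes no time point. Of all its counts, 2 cells held most.

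**Figure D2:**
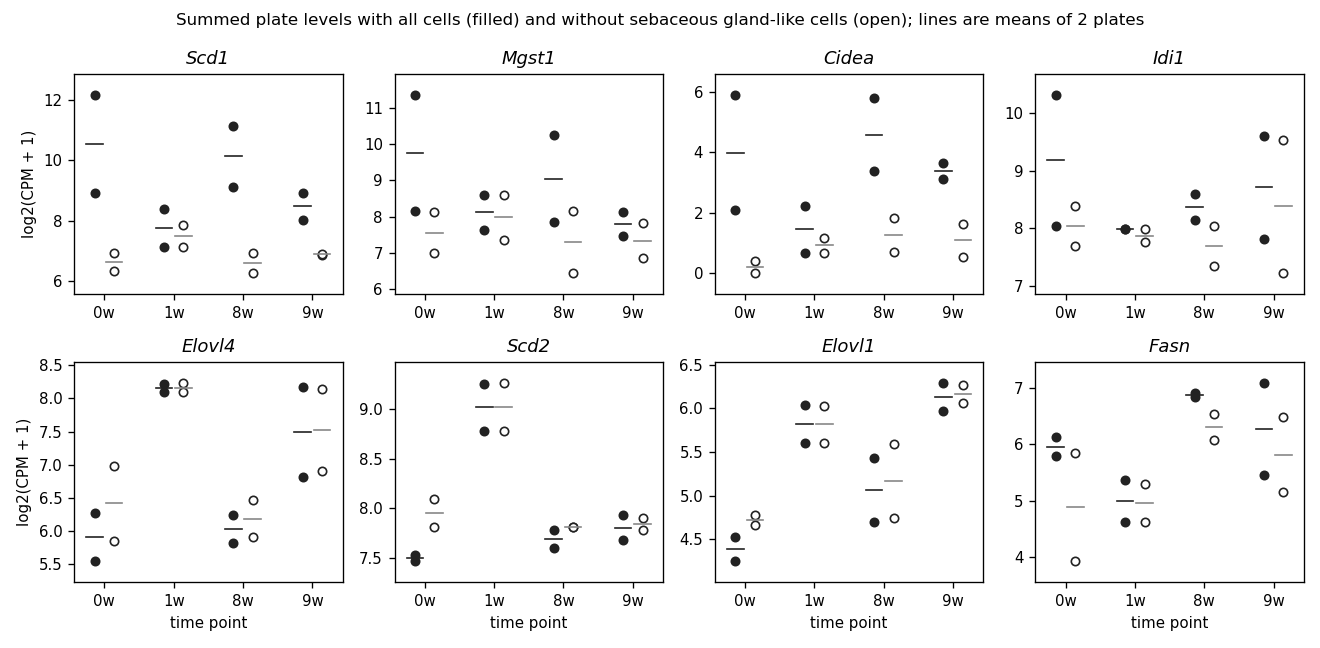
Level of 8 members in log2(CPM + 1) at each time point, 1 point per plate, with all cells (filled) and without the sebaceous gland-like cells (open); lines mark the mean of 2 plates and each panel has its own scale. Scd1, Mgst1 and Cidea lie further apart between the plates of 0w and of 8w with all cells than in the remaining cells, while Elovl4 and Scd2 have their highest mean at 1w either way.

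Of the regulators, Srebf1, at chr11:60199089-60222581, stood at 24.3 and 17.7 CPM at 0w, 7.39 and 3.69 at 1w, 43.3 and 22.0 at 8w and 34.6 and 9.87 at 9w. The 1w plates were the lowest of all 8, and both lay below both 0w plates (log2 fold change -1.92, SE 0.74, edgeR adjusted p = 0.338). Without the sebaceous gland-like cells the value was -1.47 (SE 0.80). Srebf2 stood at 46.2 and 41.1 CPM at 0w, 34.1 and 25.0 at 1w, 63.1 and 78.9 at 8w and 77.8 and 18.4 at 9w, and 61.01% of its counts on the second 8w plate were from 1 cell. Insig1 stood at 7.68 and 31.6 CPM at 0w, 10.98 and 7.91 at 1w, 2.81 and 4.31 at 8w and 5.18 and 10.1 at 9w.

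Fasn, the synthase that builds palmitate and whose promoter with 3 NF-Y boxes is given above, was also lowest at 1w with all cells. It stood at 68.8 and 54.1 CPM at 0w, 40.1 and 23.7 at 1w, 119 and 113 at 8w and 134 and 42.9 at 9w. Both 1w plates were below both 0w plates and both 8w plates above them, with a log2 fold change of -0.95 (SE 0.59, edgeR adjusted p = 0.611) at 1w and of 0.91 (SE 0.59, adjusted p = 0.83) at 8w, each against 0w. Without the sebaceous gland-like cells these values were -0.21 (SE 0.71) and 1.16 (SE 0.72). The plates of 0w (56.7 and 14.3 CPM) and 1w (38.0 and 23.6 CPM) then overlapped. Acly, which supplies acetyl-CoA, and Acaca, which makes malonyl-CoA, had log2 fold changes at 1w against 0w of -0.04 (SE 0.49) and 0.01 (SE 0.59).

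The sterol genes lay on both sides of 0 at 1w. Their median log2 fold change was 0.01, with 7 of 13 above 0, and Sc5d alone had an unadjusted p below 0.05. Hmgcs1, which makes the precursor of mevalonate and carries the sterol regulatory element shown above, stood at 223 and 924 CPM at 0w, 218 and 308 at 1w, 243 and 628 at 8w and 255 and 551 at 9w. On every time point replicate 2 was the higher plate, and the groups overlapped. Idi1, the isomerase of the isoprene units, stood at 263 and 1269 CPM at 0w, 252 and 252 at 1w, 282 and 385 at 8w and 223 and 778 at 9w, with 54.8% of its counts on the second 0w plate in 1 cell. Sqle, the epoxidase that commits squalene to sterols, stood at 67.1 and 99.7 CPM at 0w, 103 and 81.6 at 1w, 34.9 and 70.7 at 8w and 100.4 and 58.0 at 9w.

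Sc5d, a desaturase of the last steps to cholesterol, stood at 13.1 and 12.2 CPM at 0w, 26.5 and 58.1 at 1w, 41.7 and 67.3 at 8w and 20.9 and 113 at 9w. Every later plate lay above both 0w plates. The log2 fold change was 1.74 (SE 0.76, edgeR adjusted p = 0.416) at 1w, 2.11 (SE 0.77, adjusted p = 0.722) at 8w and 2.41 (SE 0.78, adjusted p = 0.253) at 9w. Single cells weighed heavily here too, with 85.5% of the Sc5d counts of 8w replicate 1 and 59.9% of those of 9w replicate 2 in 1 cell each. For Fdft1, Lss, Cyp51, Msmo1 and Nsdhl, which act between farnesyl diphosphate and cholesterol, the plates of 0w and 1w overlapped. Over the 8 plates Fdft1, the squalene synthase, spanned 16.0 to 61.5 CPM and Lss, which closes the rings, 18.0 to 49.7. The demethylation enzymes Cyp51, Msmo1 and Nsdhl spanned 22.0 to 123, 43.9 to 333 and 9.19 to 116 CPM.

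Without the sebaceous gland-like cells, 12 of 13 sterol genes had a log2 fold change above 0 at 1w against 0w, with a median of 0.73 against -0.05 over all genes, and 0 were at an unadjusted p below 0.05, against 5.16% of all genes higher. Over all 39 members the median moved from -0.56 to 0.55. It also turned to 0.28 when the second 0w plate alone was left out, and it stayed between -0.92 and -0.57 without any other plate.

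**Figure D3:**
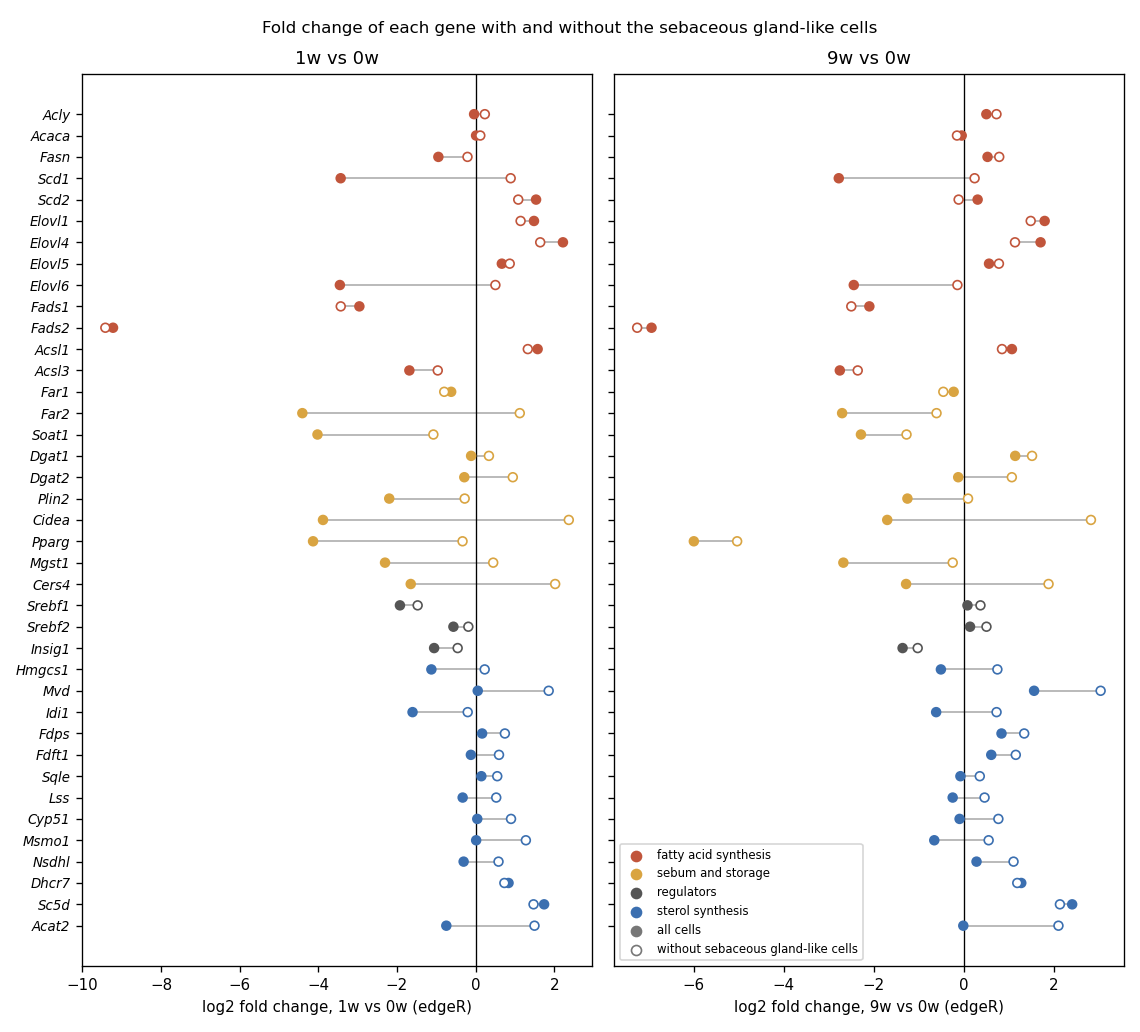
Log2 fold change (edgeR) of each member at 1w and at 9w against 0w, with all cells (filled) and without the sebaceous gland-like cells (open), coloured by list. The open points of 11 of the 13 sterol genes (not Dhcr7 and Sc5d) and of all sebum genes but Far1 lie to the right of the filled ones, while those of Elovl4, Elovl1, Scd2, Acsl1, Fads1 and Fads2 lie to the left; error bars are left out and the SEs of the genes that matter are in the text.

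The second question is whether the genes were back at their unwounded levels 8 weeks after the wound. No member was called between 8w and 0w with edgeR, where 0% of all genes were called, and DESeq2 called none against 1.22% of all genes. Only Sc5d, higher, and Insig1, lower, had an unadjusted p below 0.05, against 3.8% of all genes higher and 2.66% lower. The Insig1 log2 fold change was -2.46 (SE 0.82, edgeR adjusted p = 0.685), and both 8w plates lay below both 0w plates. Acsl3, which activates long chains for lipid droplets, stood at 31.1 and 29.99 CPM at 0w, 10.4 and 8.61 at 1w, 4.10 and 16.5 at 8w and 6.37 and 2.70 at 9w, with both 0w plates above all others (8w against 0w log2 fold change -1.57, SE 0.76). Dgat1, which makes triglycerides, stood at 4.05 and 5.88 CPM at 0w, 5.49 and 3.69 at 1w, 3.10 and 28.7 at 8w and 9.24 and 12.7 at 9w, and its 8w plates lay on both sides of those of 0w. The median over the members was -0.12, but it was 0.71 without the second 0w plate and -1.25 without the second 8w plate.

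Between 8w and 1w, 11 members had an unadjusted p below 0.05, 8 higher and 3 lower, against 6.4% and 4.66% of all genes, and edgeR called none (0.115% of all genes). The lower 3 were Elovl4 (log2 fold change -2.13, SE 0.56, edgeR adjusted p = 0.188), Scd2 (-1.35, SE 0.42, adjusted p = 0.269) and Acsl1 (-1.26, SE 0.46, adjusted p = 0.354), all with plates that did not overlap. These 3 values were -1.96, -1.23 and -1.12 without the sebaceous gland-like cells. Among the higher ones were Srebf1 (2.56, SE 0.76, adjusted p = 0.239), Fasn (1.86, SE 0.60, adjusted p = 0.298) and Cidea (3.92, SE 1.39, adjusted p = 0.34). Srebf1 and Fasn stood at 2.18 and 1.36 without those cells, whereas Cidea stood at 0.78, and Scd1 turned from 2.58 to -0.91. DESeq2 called Cidea and Srebf1 higher and Elovl4 lower, against 4.42% of all genes.

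The third question is the second healing. Between 9w and 0w edgeR called no member (0.267% of all genes) and 10 had an unadjusted p below 0.05, 4 higher and 6 lower, against 6.82% and 5.73% of all genes. Elovl1 (log2 fold change 1.80, SE 0.51, edgeR adjusted p = 0.189), Sc5d, Elovl4 (1.70, SE 0.55, adjusted p = 0.253) and Acsl1 (1.07, SE 0.46, adjusted p = 0.376) were the 4 higher ones. Pparg had the lowest p of the lower ones (-6.00, SE 1.46, adjusted p = 0.159), followed by Acsl3 (-2.75, SE 0.79, adjusted p = 0.195) and Fads2. Pparg on the 9w plates rested on few cells, since 1 cell held all of its counts on replicate 2. DESeq2 called 6 members, with Elovl1 and Sc5d higher and Fads2, Acsl3, Scd1 and Pparg lower, against 5.01% of all genes. Without the sebaceous gland-like cells Scd1 moved from -2.78 to 0.24, Elovl6 from -2.44 to -0.14 and Mgst1 from -2.67 to -0.25. Pparg, Acsl3 and Fads2 stood at -5.03, -2.36 and -7.25 in the remaining cells. The 4 higher ones stood there at 1.49 (Elovl1), 2.13 (Sc5d), 1.14 (Elovl4) and 0.85 (Acsl1).

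Outside the sebaceous gland-like cells all 13 sterol genes had a log2 fold change above 0 at 9w against 0w, with a median of 1.10 against 0.06 over all genes. The list held 4 genes at an unadjusted p below 0.05 there, against 5.94% of all genes higher. Mvd, which makes isopentenyl diphosphate and whose promoter is shown above, stood at 1.48 and 1.16 CPM at 0w and 11.3 and 10.6 at 9w in these cells (log2 fold change 3.04, SE 1.11, edgeR adjusted p = 0.337). With all cells it stood at 2.13 and 7.34 CPM at 0w, 5.56 and 4.28 at 1w, 6.48 and 10.4 at 8w and 14.1 and 13.8 at 9w. In the remaining cells Acat2, the first thiolase, stood at 11.1 and 7.94 CPM at 0w and 21.1 and 60.9 at 9w. Fdps, which makes farnesyl diphosphate, stood there at 20.2 and 27.5 CPM against 53.3 and 67.5. The plates of Mvd, Acat2, Fdps, Fdft1 and Sc5d did not overlap in these cells. Those of Hmgcs1, Idi1, Sqle, Lss, Cyp51, Msmo1, Nsdhl and Dhcr7 did. Hmgcs1 had 166 and 270 CPM at 0w and 216 and 515 at 9w, and Idi1 205 and 332 against 149 and 740. With all cells the median of the sterol list was -0.01, with 6 of 13 above 0. The median over all members with all cells was -0.09, and it was 0.83 without the second 0w plate and -0.79 without the first.

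Against 8w, 9w had 1 member higher and 1 lower at an unadjusted p below 0.05 (3.64% and 4.3% of all genes), which were Elovl4 (log2 fold change 1.61, SE 0.55, edgeR adjusted p = 0.518) and Pparg (-3.92, SE 1.35, adjusted p = 0.518), and edgeR called none (0.00722% of all genes). DESeq2 called Pparg alone, against 2.15% of all genes. All 10 sebum and storage genes had a log2 fold change below 0, with a median of -1.14 against 0.01 over all genes, but the plates overlapped for all of them except Pparg. Without the second 8w plate the median was 0.43 and 1 of 10 was below 0. With all plates but without the sebaceous gland-like cells, 2 of 10 were above 0 and the median was -0.44. Dhcr7, which makes cholesterol in the last step of the branch, stood at 9.55 and 4.64 CPM at 0w, 15.6 and 9.84 at 1w, 10.2 and 2.81 at 8w and 23.0 and 11.4 at 9w, with both 9w plates above both 8w plates (log2 fold change 1.40, SE 0.79, edgeR adjusted p = 0.697).

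The 2 healing weeks were also compared with each other. Between 9w and 1w no member was called (0% of all genes by edgeR, and no member by DESeq2, with 0.285% of all genes), and 3 had an unadjusted p below 0.05, 2 higher and 1 lower, against 3.38% and 2.63% of all genes. Srebf1 (log2 fold change 2.01, SE 0.74, edgeR adjusted p = 0.781) and Fasn (1.47, SE 0.60, adjusted p = 0.781) were higher at 9w, and Scd2 was lower (-1.23, SE 0.42, adjusted p = 0.781), all without overlap. The difference between the healings, that is the change from 8w to 9w minus the change from 0w to 1w, had no member called (0% of all genes by edgeR, and none by DESeq2 against 0.613% of all genes). Scd2 alone had an unadjusted p below 0.05 (2.94% of all genes lower), with a smaller change in the second healing (difference -1.42, SE 0.59, edgeR adjusted p = 0.922). Idi1 had the lowest p in the other direction (2.19, SE 1.06, adjusted p = 0.943).

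**Figure D4:**
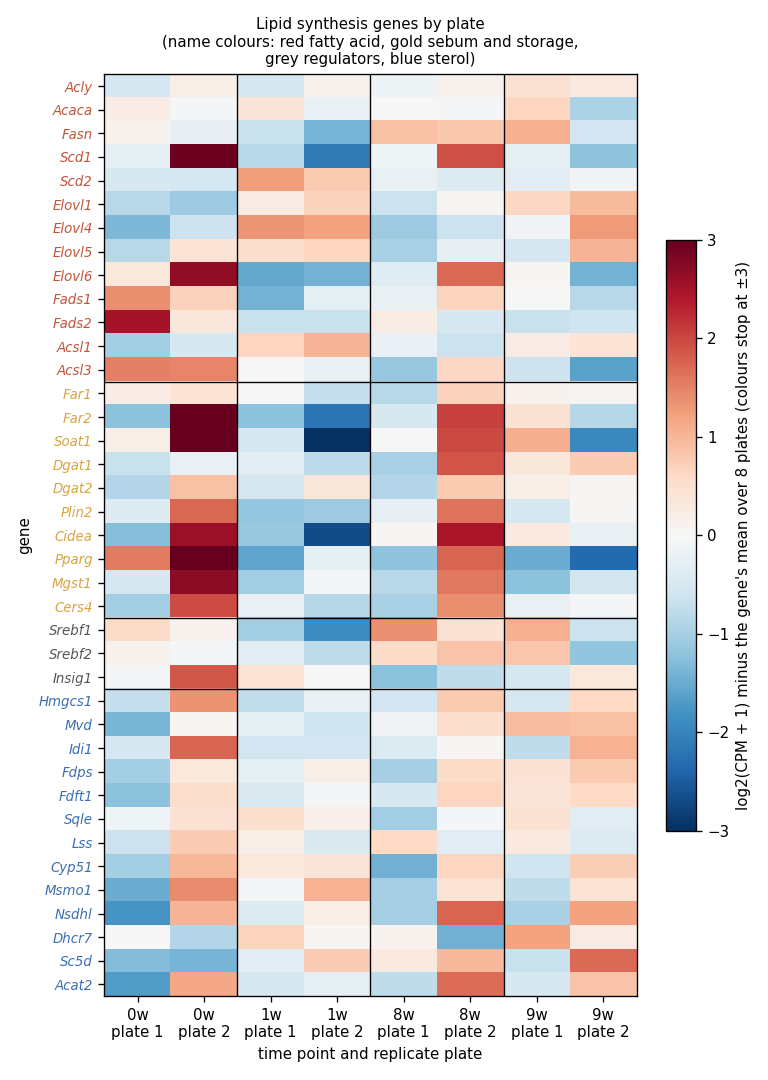
Level of all 39 members on each of the 8 plates, in log2(CPM + 1) relative to the gene's own mean, with lists separated by lines. The second plates of 0w and 8w are high for Scd1, Elovl6 and most sebum genes, and Elovl4, Scd2 and Acsl1 are high on both 1w plates.

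Fatty acid and sterol genes were then set against each other on each plate. The summed level of the 13 fatty acid genes was 1070 and 5586 CPM at 0w, 1623 and 1281 at 1w, 1201 and 3105 at 8w and 1329 and 1187 at 9w, and that of the 13 sterol genes was 726 and 3080, 965 and 1228, 832 and 1803, and 934 and 2093 CPM. The log2 ratio of sterol to fatty acid sums was -0.56 and -0.86 at 0w, -0.75 and -0.06 at 1w, -0.53 and -0.78 at 8w and -0.51 and 0.82 at 9w. The second 9w plate was the only one with more sterol than fatty acid counts, and the plates of 0w, 1w and 8w overlapped with each other. Both 9w plates lay above both 0w and both 8w plates, the first by a narrow margin, and they overlapped with 1w. With equal scaling of cells this order was lost, since the first 9w plate was at -0.79 against -0.65 and -0.74 at 0w. Without the deepest cell of each plate it was at -0.54, next to -0.53 on the first 8w plate. The sums are not scaled by gene length, so the ratio ranks plates and says nothing of lipid made.

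Scd1 made up 82.9% of the fatty acid sum on the second 0w plate and 10.8% on the second 1w plate, so the ratio with all cells leaned on that gene. Without the sebaceous gland-like cells the ratio was -0.16 and 0.41 at 0w, -0.73 and -0.06 at 1w, 0.09 and 0.53 at 8w and -0.12 and 0.97 at 9w. In the remaining cells the fatty acid sum was 675 and 730 CPM at 0w, 1510 and 1276 at 1w, 668 and 734 at 8w and 878 and 1007 at 9w. The 1w plates were the highest and the 9w plates next, with no overlap with 0w or 8w. At 1w this sum leaned on few genes. From 0w to 1w the mean in these cells went from 247 to 525 CPM for Scd2, 91.3 to 285 for Elovl4, 65.6 to 165 for Acsl1 and 99.2 to 184 for Scd1. It went from 40.8 to 48.0 for Acly, 38.9 to 42.3 for Acaca and 35.5 to 30.8 for Fasn. The sterol sum in these cells was 606 and 970 CPM at 0w, 910 and 1223 at 1w, 712 and 1061 at 8w and 806 and 1976 at 9w, and there the plates of different time points overlapped. Within each replicate number, however, 0w was the lowest, 8w came next and both healing weeks lay above 8w. As a score over the members these sums carry no test.

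**Figure D5:**
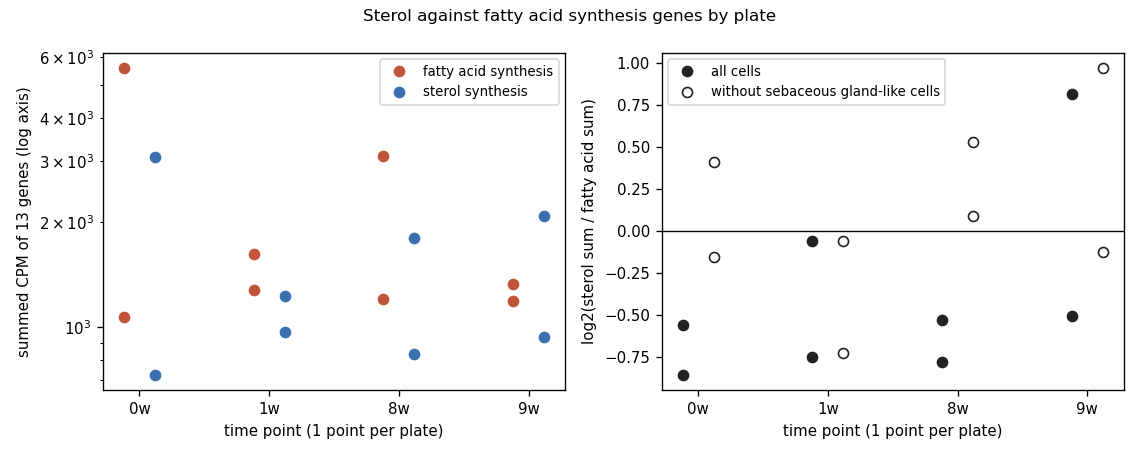
Left, summed CPM of the 13 fatty acid and the 13 sterol genes over all cells (log axis), and right, log2 of the sterol sum over the fatty acid sum with all cells (filled) or without the sebaceous gland-like cells (open), 1 point per plate. The second 9w plate has the highest ratio either way, at 0.82 with all cells and 0.97 without.

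From cell to cell within a plate, the summed fatty acid and sterol levels moved together to a moderate degree, with a Spearman correlation between 0.215 (1w replicate 2, 79 cells) and 0.66 (0w replicate 2, 91 cells). Without the sebaceous gland-like cells the values lay between 0.195 and 0.481. Cells of a plate share a library preparation and differ in depth, so these are descriptions. The median cell had 754 CPM of fatty acid and 546 CPM of sterol genes on the second 0w plate, and 918 and 953 CPM on the second 9w plate.

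A count of at least 1 was seen in 44.0% of all cells for the median member, from 2.87% for Fads2 to 75% for Mgst1. After thinning to 30000 counts per cell, which kept 615 cells, the median member was seen in 32.2%. Scd1 was seen in 100% of the sebaceous gland-like cells and in 59.97% of the others, Soat1 in 59.3% and 10.5%, and Cidea in 40.7% and 3.92%, at median depths of 209859 and 129527 counts. Elovl4 had the opposite pattern, with 3.39% and 41.0%.

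Genes of the same pathways that are not among the 39 were taken from 5 further lists, and edgeR without the block called none of their tested genes in any of the 7 comparisons. With the replicate block it called Cers3 and Acsl4 at 1w against 0w and Lipe at 8w against 1w (0.794% of all genes under the block in the latter). DESeq2 called Cers3, Ebp, Ugcg, Fads3 and Scd4 higher and Acsl4, Fa2h, Acsbg1 and Elovl3 lower at 1w against 0w (5.29% of all genes). It called Mvk, Cers3, Ugcg and Fads3 higher at 9w against 0w (5.01% of all genes). Fa2h, Acsbg1 and Elovl3 were among the markers that named the sebaceous gland-like cells. At 8w against 1w DESeq2 called Lipe, Fa2h and Elovl3 higher and Fads3 lower (4.42% of all genes). It called Mvk and Fads3 higher at 9w against 8w (2.15%) and Fa2h higher at 9w against 1w (0.285%). Cers3, the ceramide synthase that uses the very long chains of Elovl4, had the lowest p, with 2.96 and 6.69 CPM at 0w, 59.0 and 45.2 at 1w, 18.6 and 8.48 at 8w and 34.6 and 27.2 at 9w (log2 fold change at 1w against 0w 3.43, SE 0.67, edgeR adjusted p = 0.0618, and 3.38 with adjusted p = 0.0405 under the block). Its order of time points is that of Elovl4. Of the 15 other sterol genes tested, 1 was higher and 0 lower at an unadjusted p below 0.05 at 1w against 0w, where 5.45% of all genes were higher and 6.01% lower. That gene was Ebp, a sterol isomerase, with 14.8 and 9.12 CPM at 0w, 43.1 and 55.1 at 1w, 15.3 and 25.2 at 8w and 31.99 and 37.4 at 9w (log2 fold change 2.04, SE 0.55, adjusted p = 0.167). At 9w against 0w 4 of the 15 were higher and 1 lower at that p, against 6.82% and 5.73% of all genes. Mevalonate kinase, Mvk, had the lowest p (4.98 and 5.18 CPM at 0w, 10.7 and 12.9 at 1w, 6.05 and 7.76 at 8w and 31.99 and 27.3 at 9w, log2 fold change 2.54, SE 0.59, adjusted p = 0.144).

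Of the 16 other fatty acid genes tested, 3 were higher and 2 lower at an unadjusted p below 0.05 at 1w against 0w, against 5.45% and 6.01% of all genes. Of the 16 other sebum genes 2 were higher and 2 lower, and of 6 sterol export and 13 lipid breakdown genes 0 were higher and 2 in each list lower. Acsl4, which activates arachidonic acid, stood at 125 and 231 CPM at 0w, 33.5 and 50.3 at 1w, 106 and 176 at 8w and 49.9 and 66.7 at 9w, so that both healing weeks lay below both other time points (log2 fold change at 1w against 0w -2.09, SE 0.53, edgeR adjusted p = 0.141, and -2.05 with adjusted p = 0.0333 under the block). Abca1, which exports cholesterol, stood at 90.8 and 187 CPM at 0w, 42.6 and 50.8 at 1w, 81.8 and 159 at 8w and 105 and 86.4 at 9w (log2 fold change at 1w against 0w -1.57, SE 0.54, adjusted p = 0.263), and at -0.58 without the sebaceous gland-like cells. Lipe, the hormone-sensitive lipase, stood at 80.9 and 53.9 CPM at 0w, 37.7 and 14.2 at 1w, 171 and 143 at 8w and 71.3 and 55.7 at 9w, with the 8w plates above all others (log2 fold change at 8w against 1w 2.60, SE 0.58, adjusted p = 0.14, 2.72 with adjusted p = 0.0416 under the block, and 2.64 without the sebaceous gland-like cells). Cpt2, of mitochondrial fatty acid import, stood at 3.22 and 7.88 CPM at 0w, 17.3 and 13.2 at 1w, 16.1 and 47.9 at 8w and 10.6 and 11.4 at 9w. Fa2h, a fatty acid hydroxylase and one of the markers that named the sebaceous gland-like cells, stood at 2.08 and 40.9 CPM at 0w, 0.261 and 0.0586 at 1w, 6.05 and 53.3 at 8w and 15.1 and 9.28 at 9w. Fads3, a desaturase of the Fads family, was near 0, with 0.0519 and 0 CPM at 0w, 4.05 and 1.05 at 1w, 0 and 0 at 8w and 1.96 and 2.32 at 9w. Nr1h3, a nuclear receptor for oxysterols, was as low, with 0.519 and 1.29 CPM at 0w, 0 and 0 at 1w, 0.072 and 1.89 at 8w and 0.28 and 0.108 at 9w.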

How the data were processed

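Single-cell libraries of Lrig1 stem cell progeny were made with Smart-seq2. The deposited table holds estimated counts per gene and cell, which the authors made with Salmon 0.13.1 on GRCm38. The study then removed cells with few genes or many mitochondrial reads; 2 cells of the deposited table fall outside that filter and were kept. The counts were not corrected for batch, and library preparation used no molecular identifiers, so intervals cover counting error only. Every column was assigned to a sample by its name. Estimated counts were summed over the cells of each plate and rounded to whole numbers.

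Time points were compared over the 8 plates with edgeR 4.0.16 (R 4.3.3; TMM scaling, filterByExpr, quasi-likelihood test), with Benjamini-Hochberg adjustment over 13853 genes. A call needed an adjusted p below 0.05 and a fold above 2. With 2 plates per time point an exact permutation test cannot go below 0.333, and p-values measure only the spread between plates. Members and gene lists were chosen with earlier results of these data known. All members were accounted for, and named with values on every plate were, per comparison, the 3 with the lowest p in each direction, the 3 regulators, Fasn, Scd1, Hmgcs1 and Sqle, and of each further list the 2 genes with the lowest p. The main fit held the time point only and did not pair the plates. The labels number the plates and do not state a pairing across time points. Same-numbered plates deviated together, though weakly, in all 6 pairs of time points (correlation 0.121 to 0.213). The replicate number was therefore added as a block in an alternative fit. At 1w against 0w that fit called 1.7% of all genes, next to 0.527% in the main fit. Cells were clustered with scanpy 1.11.5 without the members. Alternatives were DESeq2 1.42.0, no filter on low counts, the replicate block, equal scaling of cells, a stricter cell filter and leaving out plates or the sebaceous gland-like cells.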

Additional observations from a re-analysis of the deposited data

How the results depend on the processing

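With any plate left out edgeR called 0 members, as with all plates; a time point then has 1 plate, assumed to vary like the others, so this count says nothing about stability. DESeq2 called 9 members at 1w against 0w, 6 at 9w against 0w, 3 at 8w against 1w and 1 at 9w against 8w. The replicate block called 1 member at 1w against 0w (Elovl4) and changed no other member call. The log2 ratio of sterol to fatty acid sums moved by more than the spread between plates at 0w, to -0.10 as a mean of logs over genes, 0.13 without the sebaceous gland-like cells, -1.19 with the stricter cell filter and 1.00 without Scd1. At 1w it moved to 0.42 as a mean of logs, and at 8w to 0.35, 0.31, -0.18 and 0.74 in the same order of settings. The median share of cells with a member detected was 32.2% after thinning and 28.3% with at least 5 counts. The sebaceous gland-like name covered 16 cells at the finer clustering and 0 at the coarser one. Leaving out the deepest cell of each plate, summing the sebaceous gland-like cells alone and leaving out Scd1 were chosen after seeing the data.

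Single members were counted here only for the comparisons in which the rule above named them. Of these values, 15 under other settings and 16 with a plate left out changed sign, and most others kept direction and call. Over all 39 members, 13 lay above 0 at 1w against 0w with all cells and 27 without the sebaceous gland-like cells. Among the named ones, with the sebaceous gland-like cells left out, log2 fold changes at 1w against 0w turned to 0.50 (Elovl6), 0.89 (Scd1) and 0.23 (Hmgcs1). They turned at 9w against 0w to 0.24 (Scd1), 0.75 (Hmgcs1) and 0.36 (Sqle), and at 8w against 0w to 0.0034 (Hmgcs1). At 9w against 8w the value was 0.26 (Scd1) and in the difference of healings -4.49 (Far2). Members not named for a comparison turned as well. At 1w against 0w Cidea went from -3.88 to 2.37 and Far2 from -4.41 to 1.12, and at 8w against 1w Elovl6 went from 2.54 to -1.29. With the stricter cell filter Scd1 turned to 0.10 at 9w against 8w, and Srebf1 to -0.021 and Sqle to 0.24 at 9w against 0w. Under the replicate block Srebf1 and Srebf2 turned to -0.15 and -0.028 at 9w against 0w, and with equal scaling of cells Sqle turned to 0.11. The causes were not tested.

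The ranges that follow are for the named members and comparisons that changed sign with a plate left out. Values at 1w against 0w ranged from -1.78 to 0.28 for Insig1, -1.85 to 0.23 for Hmgcs1 and -0.15 to 0.45 for Sqle. At 8w against 0w they ranged from -0.75 to 2.52 for Dgat1, -2.30 to 1.53 for Scd1 and -1.32 to 0.95 for Hmgcs1. At 9w against 0w they ranged from -1.11 to 0.74 for Srebf1, -1.27 to 0.85 for Srebf2, -0.54 to 1.15 for Fasn, -1.24 to 0.83 for Hmgcs1 and -0.56 to 0.28 for Sqle. In the difference of healings Far2 ranged from -0.89 to 4.94. With 2 plates per time point and single cells that hold much of a gene's counts, differences of the size of these ranges could not be resolved.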
